A study of Mus musculus with 2 samples.

Results

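The genes described here are 34 genes of fatty acid uptake, lipid droplet storage, lipolysis and fatty acid synthesis, chosen by name from the 31053 features of the count tables. They were followed across the cell classes of 2 single-cell RNA libraries from the liver tumour region of C57BL/6 mice. Per the labels, all mice were 17 months old and had been fed CD-HFD for 15 months, and a compound inhibiting FABP5, a fatty acid binding protein, was given from month 13 in the inhibitor group. The control group carries only the label control, and neither its treatment nor the number of mice behind a library was given in the sources used here. The tumour region was digested with collagenase, an Annexin V kit was used to enrich live cells (the fraction sequenced was not stated), and droplets of a 10x Genomics 3′ kit gave each captured transcript a molecular tag (unique molecular identifier, UMI). There was 1 library per group, so every difference below is a difference between these 2 libraries with no replicate check, and no test was made. Intervals are exact 95% intervals that cover counting error only.

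Fatty acids enter cells through surface receptors and transport proteins and are activated by coupling to coenzyme A. They are then esterified into triglyceride, which is kept in droplets coated by perilipins, and are released again by cytosolic lipases at the droplet or by acid lipase in the lysosome. Hepatocytes also make fatty acids from citrate and desaturate and elongate them under the control of SREBP-1c, and macrophages of fatty liver take up and store lipid.

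In the control library there were 9493 barcodes with 53378693 UMIs, in the inhibitor library 10649 with 68074929, and 29 barcodes occurred in both. After filtering, 6461 and 8753 cells were kept, with median depths of 3955 and 6282 UMIs. More control barcodes exceeded the mitochondrial limit (2204, 23.2%) than inhibitor barcodes (885, 8.31%), and 17 genes of hepatocyte secreted proteins made up 1.39% of control and 0.0839% of inhibitor UMIs, counted over all barcodes, hepatocytes and those over the limit included. Of 31 clusters, 30 were named in 15 marker-defined classes, and the 8 classes that had 100 or more cells in both libraries were compared. Levels are counts per 1000000 UMIs of the class in a library (CPM). A gene was measured in a class when it had at least 20 UMIs over both libraries, and it was called higher or lower in the inhibitor library when its CPM differed at least 1.5-fold. Of the 34 genes, 28 were measured in at least 1 of the 8 classes. The other 6 were Vldlr, Plin4, Cidea, Gpam, Pnpla3 and Acacb, and each had at least 1 UMI somewhere in the data.

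The promoters of Hilpda and Plin2 are shown because these droplet genes had higher levels in the Kupffer-like cells of the inhibitor library, and because both are known, as background, as genes induced by low oxygen or by fatty acids. They are RefSeq sequences of GRCm38.p6, written 5′ to 3′ on the strand of the gene, from 250 bases before to 50 bases after the annotated start. Capitals mark ACGTG in Hilpda, which is a form of the core of the hypoxia response element. In Plin2 they mark the overlapping matches on both strands, CACGTG, which are also the letters of an E-box. Other forms of the core were not searched for. The Hilpda promoter is chr6:29272376-29272675 on the plus strand and the Plin2 promoter is chr4:86670010-86670309 on the minus strand.
Hilpda: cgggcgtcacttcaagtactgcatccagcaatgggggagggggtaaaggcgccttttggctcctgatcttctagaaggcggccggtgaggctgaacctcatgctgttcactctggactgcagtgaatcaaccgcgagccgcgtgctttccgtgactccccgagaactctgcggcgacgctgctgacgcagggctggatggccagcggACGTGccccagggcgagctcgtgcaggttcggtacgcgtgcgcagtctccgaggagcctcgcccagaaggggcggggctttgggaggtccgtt
Plin2: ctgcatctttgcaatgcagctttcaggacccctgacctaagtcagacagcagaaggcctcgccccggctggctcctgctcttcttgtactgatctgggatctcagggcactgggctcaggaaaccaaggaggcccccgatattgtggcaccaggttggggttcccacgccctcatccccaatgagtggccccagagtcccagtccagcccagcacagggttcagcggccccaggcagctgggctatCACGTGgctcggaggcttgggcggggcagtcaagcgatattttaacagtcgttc
The match in Hilpda begins 43 bases before the start, and the matches in Plin2 begin 4 bases before the start. A neighbouring Hilpda promoter that begins at another start, chr6:29272238-29272537, held no match. ACGTG was found, on either strand, in 19.6% of all 32851 promoters of 300 bases and in 11 of the 40 promoters found for 28 of the 34 genes. The sterol element TCACNCCAC was in 1.24% of all promoters and in 1 of the 40, which belongs to Acsl1, and a pair of AGGNCA in the same direction with 1 base between them (direct repeat 1) was in 0.381% of all and in none of the 40. A match is a description of letters and not a binding site. Scd1, Scd2, Cidea, Dgat1, Dgat2 and Fads1 had no promoter entry.

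Of the 28 measured genes, 23 had their highest CPM in the same class in both libraries, out of classes with at least 100 cells in a library. Hepatocyte-like cells held the highest level of 13 genes in both libraries: the synthesis and desaturation genes Acaca, Fasn, Me1, Scd1, Thrsp, Fads1 and Fads2, the droplet genes Plin2, Plin3, Cideb and Cidec, the triglyceride synthesis gene Dgat2 and the lipase gene Mgll. Neutrophil-like cells held that of Acsl1, Slc27a4, Dgat1, Gpat3, Pnpla2 and Lipe. Kupffer-like cells, named by markers that include Clec4f, Vsig4 and Cd5l, held that of Cd36, Hilpda, Lipa and Scd2. The remaining 5 genes were highest in different classes. In the control library Slc27a1 was highest in plasmacytoid dendritic cell-like cells (50.7 CPM) and Elovl6 in NK-like or ILC1-like cells (13.4 CPM). Acly, Elovl5 and Srebf1 were highest there in hepatocyte-like cells, and in the inhibitor library these 5 genes were highest in other classes. Many first places had an interval that overlapped that of the second class. In both libraries these were Elovl5, Elovl6, Srebf1 and Acaca. In the control library Acly, Hilpda and Slc27a4 were also among them, and in the inhibitor library Slc27a1, Acsl1, Gpat3 and Lipe. The 76 inhibitor plasmacytoid cells, with Slc27a1 at 73.8 CPM, were too few to enter that order. Their Fads2 level, given among the other observations below, was above that of inhibitor hepatocyte-like cells (12.4 CPM). The levels are descriptions, and 12 of the 34 genes were among the variable genes used for clustering.

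**Figure D1:**
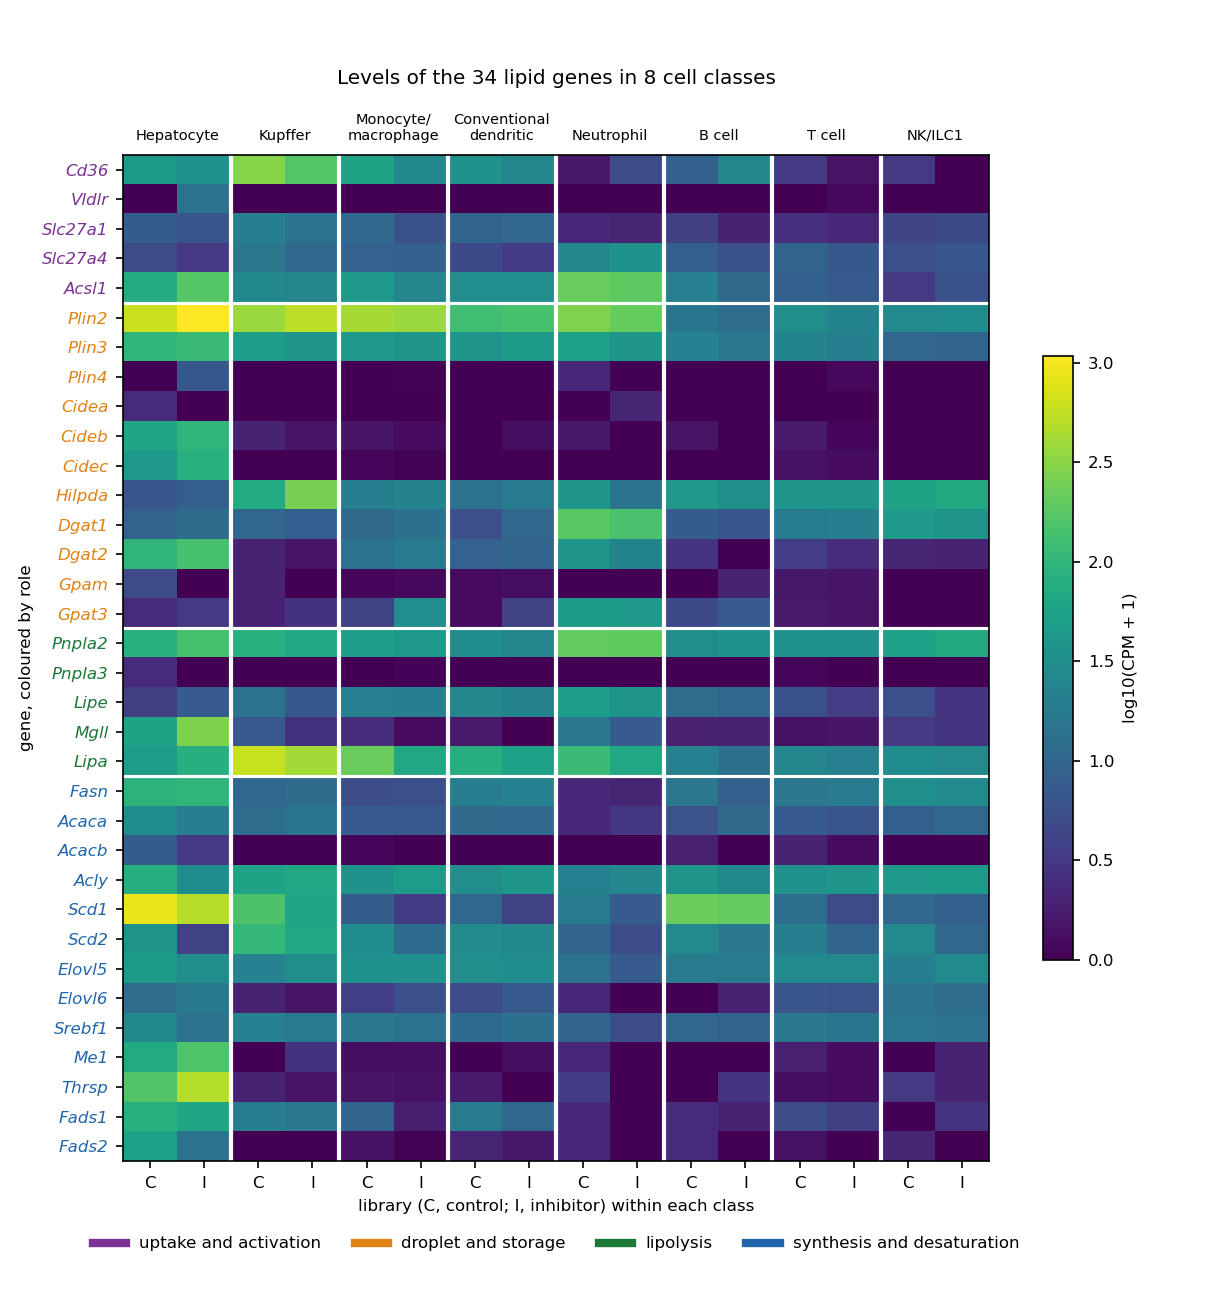
Level of each of the 34 genes, as log10(CPM + 1), in the control (C) and inhibitor (I) library of the 8 compared classes, with gene names coloured by role. Thrsp, Cideb and Cidec are bright in hepatocyte-like cells of both libraries, Fads2 in those of the control library, and Cd36 and Lipa in Kupffer-like cells.

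In Kupffer-like cells, the resident macrophages of the liver, the droplet gene Hilpda was higher in the inhibitor library while the uptake gene Cd36 and both stearoyl-CoA desaturase genes were lower. Hilpda, whose product sits on droplets and inhibits adipose triglyceride lipase, stood at 71.8 and 255 CPM in the control and inhibitor libraries (71 and 572 UMIs), which is 3.56-fold higher (interval 2.78 to 4.62). Plin2, the main droplet coat protein of liver cells, stood at 380 and 545 CPM, a log2 ratio of 0.52 (interval 0.35 to 0.69) that did not reach 1.5-fold. Of the 4 measured droplet and storage genes, Hilpda and Plin2 therefore had a higher CPM in the inhibitor library, with intervals that exclude equality. Plin3 (48.5 and 35.7 CPM) and Dgat1 (9.10 and 7.14 CPM) had a lower CPM there, with intervals that include equality. A Hilpda UMI was seen in 21.6% of 111 control and 63.9% of 169 inhibitor cells. Depth differed, with medians of 8272 and 13485 UMIs. In cells thinned to 1000 UMIs the shares were 2.91% of 103 and 17.3% of 156 cells, and 8 and 13 shallower cells were left out. Hepatocyte-like cells, which had the lowest Hilpda level of the 8 compared classes, had a Hilpda UMI in 2.74% and 5% of cells at median depths of 1868 and 3859 UMIs. One control cell held 23.9% of the control Hilpda UMIs, and the highest inhibitor cell held 3.67%. With the doublet share doubled, the log2 ratio of Hilpda was 2.81 in place of 1.83.

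Of the 4 measured uptake genes in Kupffer-like cells 3 were called lower, and for 1 of them, Cd36, the interval excludes equality. Cd36, a scavenger receptor that carries long-chain fatty acids and oxidised lipoprotein, stood at 301 and 167 CPM (log2 ratio -0.85, interval -1.08 to -0.63). The fatty acid transport genes Slc27a1 (19.2 and 12.5 CPM) and Slc27a4 (15.2 and 9.82 CPM) were also past 1.5-fold, but their intervals include equality. With the doublet share doubled, and 95 control cells left, their log2 ratios were -0.56 and -0.33 and the calls ended. Acsl1, which activates fatty acids, stood at 25.3 and 22.8 CPM. Among the lipases, Lipa, the lysosomal acid lipase that frees fatty acids and cholesterol from ingested lipid, stood at 597 and 415 CPM (log2 ratio -0.53, interval -0.68 to -0.37), short of 1.5-fold. Lipe, hormone-sensitive lipase, was called lower on 13 UMIs in each library (13.1 and 5.80 CPM, interval of the log2 ratio -2.41 to 0.05), and Pnpla2, adipose triglyceride lipase, stood at 83.9 and 64.3 CPM. All 3 measured lipase genes thus had lower values, of which 1 was called. In the synthesis group, the desaturase genes Scd1 (152 and 60.2 CPM, log2 ratio -1.33, interval -1.68 to -0.99) and Scd2 (105 and 64.3 CPM, log2 ratio -0.71, interval -1.08 to -0.33) were lower. Both introduce the double bond of oleate and palmitoleate. The other 6 measured synthesis genes, among them Acly at 55.6 and 62.5 CPM, were within 1.5-fold.

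In all, 7 of 19 measured members were called in Kupffer-like cells, 1 higher and 6 lower, where 30.9% of all measured genes were called, 12.8% higher and 18.1% lower. Their median log2 ratio was -0.35, and that of all measured genes was -0.05. Of the other 58 pathway genes, 37 were measured, 6 of them higher and 3 lower. The scavenger receptor gene Msr1 (189 and 384 CPM), the transcription factor gene Cebpb (653 and 1142 CPM) and the lipoprotein lipase gene Lpl (1481 and 2233 CPM) were higher, and 3 of the 11 measured pathway genes of uptake were higher and 1 lower. The transcription factor gene Cebpa (127 and 54.9 CPM), Acsl3 (15.2 and 4.02 CPM) and Lpin1 (16.2 and 4.91 CPM) were lower. The share of free RNA was estimated as the hepatocyte secreted share of a class over that of all barcodes, which assumes that free RNA has the makeup of all barcodes together. It was 5.87% in the control and 13.2% in the inhibitor library of this class, and its part in these differences was not tested beyond the subtraction among the alternatives, under which the log2 ratio was 1.94 for Hilpda, -0.76 for Cd36 and -1.26 for Scd1.

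**Figure D2:**
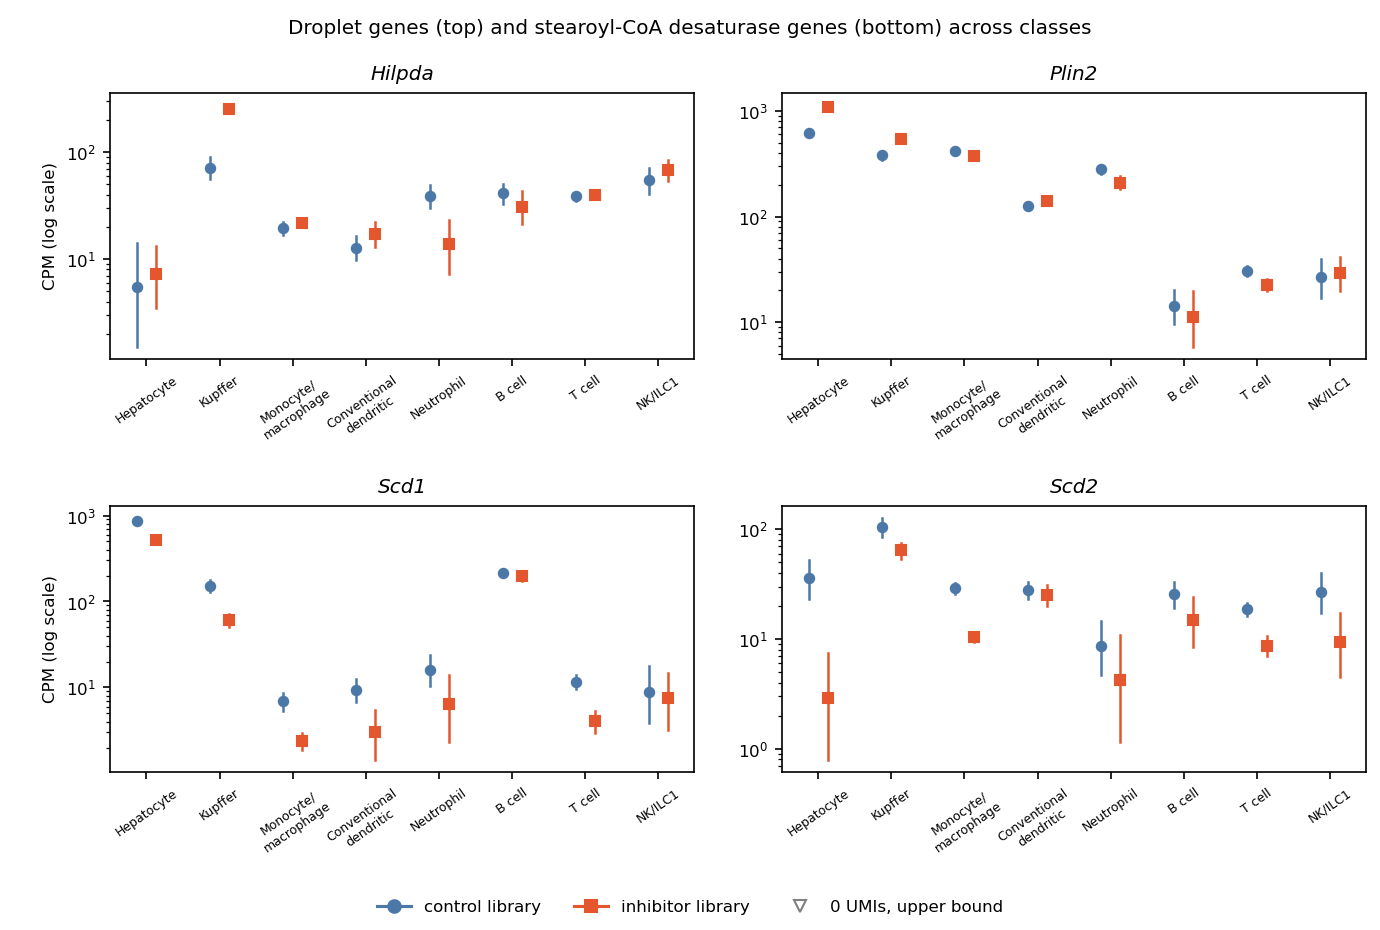
CPM on a log scale of Hilpda and Plin2 (top) and Scd1 and Scd2 (bottom) in the 8 compared classes, as points with 95% counting intervals for the control (circles) and inhibitor library (squares). Hilpda stands apart in inhibitor Kupffer-like cells at 255 CPM, and the inhibitor point is below the control point for Scd2 in every class drawn and for Scd1 too, by little in B cell-like and NK-like or ILC1-like cells.

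The desaturase genes were lower in most classes. Scd1 and Scd2 were each called lower in 6 of the 7 classes in which they were measured and higher in none, counts that no other member matched. For Scd2 these were Kupffer-like, monocyte-like or macrophage-like, hepatocyte-like, B, T and NK-like or ILC1-like cells, and the exception was conventional dendritic cell-like cells (28.0 and 25.2 CPM). For Scd1 the exception was B cell-like cells (217 and 200.1 CPM). These classes share 2 libraries and are not replicates. Hepatocytes carry much Scd1, and the free RNA estimate bore on it: after subtraction, Scd1 stood at 0 and 0.819 CPM in T cell-like cells, at 0 in neutrophil-like cells of both libraries, and at 2.25 and 0.620 CPM among monocyte-like or macrophage-like cells, against 11.6 and 4.02, 16.1 and 6.34, and 6.89 and 2.37 CPM before it. In Kupffer-like cells the subtracted values were 155 and 65.1 CPM. In hepatocyte-like cells the log2 ratio of Scd1, -0.76, reversed to 0.48 without the mitochondrial limit and to 1.66 with at least 600 genes per cell. Under these settings the class held another mix of cells. Most control cells lay in a cluster led by Cyp2a4 and Apoa4 without the limit (565 control and 2 inhibitor cells). With at least 600 genes most lay in one led by Apoa4 and Kng1 (200 and 3 cells). The class also held a cluster led by genes such as Rgs5, Clu, Tm4sf4 and Spp1 (106 control and 38 inhibitor cells, and 114 and 2 cells). The part of these clusters in the reversal was not tested. Scd2 was hardly moved by the subtraction, with 17.5 and 8.10 CPM in T cell-like and 29.2 and 10.3 CPM among monocyte-like or macrophage-like cells.

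In monocyte-like or macrophage-like cells (1213 control and 4163 inhibitor cells, median depths 7995 and 8096 UMIs), 3 uptake genes and the acid lipase gene had lower class values in the inhibitor library and Gpat3 a higher one, and several of these directions did not hold within clusters. Of 23 measured members, 10 were called, 2 higher and 8 lower, where 34.2% of all measured genes were called, 13.3% higher and 21.0% lower. Their median log2 ratio was -0.15, and that of all measured genes was 0.00. The class was filled by different clusters in the libraries. The control cells lay mostly in cluster 7, led by Gpnmb, Ms4a7 and Trem2 (636 control and 83 inhibitor cells), and the inhibitor cells mostly in cluster 0, led by Vcan, F13a1 and Chil3 (80 and 2966 cells). Cluster 3, led by Serpinb2, Lyz2 and Plac8, held 297 and 770 cells, cluster 11, led by Ace, Ear2 and Treml4, held 98 and 294, and cluster 18, led by Cxcl9 and Cxcl10, held 102 and 50. Values or calls within clusters therefore stand beside the class values of the called members below.

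Of the 4 measured uptake genes in this class 3 were lower. Cd36 stood at 54.5 and 25.03 CPM in the class (log2 ratio -1.12, interval -1.28 to -0.96). Within clusters its direction differed: it was lower in the inhibitor cells of cluster 7 (70.8 and 31.6 CPM) but higher in those of cluster 3 (12.8 and 28.5 CPM), cluster 11 (193 and 307 CPM) and cluster 0, which holds most inhibitor cells (1.62 and 2.99 CPM, from 1 control and 73 inhibitor UMIs, with an interval that includes equality). Slc27a1 stood at 9.92 and 4.61 CPM in the class and was called lower in none and higher in 1 of the 3 clusters that measured it. Acsl1 stood at 41.8 and 23.2 CPM, and it was lower in clusters 0 (45.3 and 22.2 CPM), 7 (43.5 and 27.2 CPM) and 18 (50.01 and 21.1 CPM) and higher in none of 5.

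Among the droplet and storage genes of this class, Gpat3 alone passed 1.5-fold. Gpat3, an acyltransferase that begins triglyceride synthesis, stood at 2.84 and 29.3 CPM (28 and 980 UMIs), 10.3-fold higher in the inhibitor library (interval 7.11 to 15.7). Within cluster 3 it stood at 2.29 and 15.4 CPM, and in cluster 0 at 24.2 and 35.9 CPM, so the cluster that holds most inhibitor cells had a high level in both libraries. A Gpat3 UMI was seen in 1.81% of control and 19.1% of inhibitor cells, and after thinning in 0.169% and 3.07%. In T cell-like cells, at median depths of 3649 and 3770 UMIs, it was seen in 0.275% and 0.189%. Plin2 stood at 418 and 374 CPM in the class, and at 285 and 400 CPM in cluster 3. Hilpda (19.5 and 21.6 CPM) and Dgat2, which completes triglyceride (12.7 and 16.8 CPM), were within 1.5-fold in the class. In cluster 7, Hilpda was higher (24.0 and 42.5 CPM) and Dgat2 lower (11.7 and 1.09 CPM).

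Of the 4 measured lipase genes of this class 2 were lower. Lipa stood at 213 and 64.1 CPM, 3.32-fold lower in the inhibitor library (interval 3.13 to 3.53). Within clusters the difference between the libraries was smaller, and in clusters 7 and 18 it went the other way. In clusters 0, 3 and 11 Lipa was lower, with 93.8 and 49.9, 110.4 and 65.8, and 157 and 90.9 CPM. In cluster 7, where it was highest, it stood at 304 and 376 CPM, and in cluster 18 at 52.9 and 65.6 CPM. Mgll, monoacylglycerol lipase, was called lower on 15 and 8 UMIs, and all 15 control UMIs were in cluster 7. Pnpla2 and Lipe were within 1.5-fold in the class, and Pnpla2 was lower in cluster 7 (46.9 and 27.2 CPM) and Lipe in cluster 18 (32.7 and 18.7 CPM). In the synthesis group Scd2 was lower in the class (29.1 and 10.4 CPM, log2 ratio -1.48, interval -1.71 to -1.25) and in 4 of the 5 clusters, with 33.7 and 18.5 CPM in cluster 7 and 25.7 and 12.0 CPM in cluster 3. Fads1, a desaturase that makes polyunsaturated fatty acids, stood at 8.81 and 0.808 CPM, 10.9-fold lower (interval 7.01 to 17.5), yet at 13.6 and 10.9 CPM within cluster 7, which held 74 of its 87 control UMIs. Elovl6, an elongase, was higher in the class (2.63 and 4.55 CPM) and in none of the 2 clusters that measured it, being lower in 1. Scd1, lower in the class, was called lower in 1 of the 3 clusters that measured it and higher in none.

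The share of members called within clusters was above that of all genes in 3 clusters and below it in 2. It was 6 of 21 in cluster 0, where 35.9% of all measured genes were called, 7 of 21 in cluster 3 (24.5%), 9 of 20 in cluster 7 (32.3%), 4 of 14 in cluster 11 (23.7%) and 4 of 11 in cluster 18 (44.2%). Of the other 58 pathway genes, 45 were measured in the class, 10 higher and 12 lower. Msr1 (54.2 and 181 CPM) and Cebpb (1237 and 2419 CPM) were higher. Aadac (2.23 and 0.210 CPM), the lipid chaperone gene Fabp4 (106 and 34.5 CPM) and the oxysterol receptor gene Nr1h3 (59.0 and 22.5 CPM) were lower. These pathway values are of the whole class, and those of its clusters are not given.

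**Figure D3:**
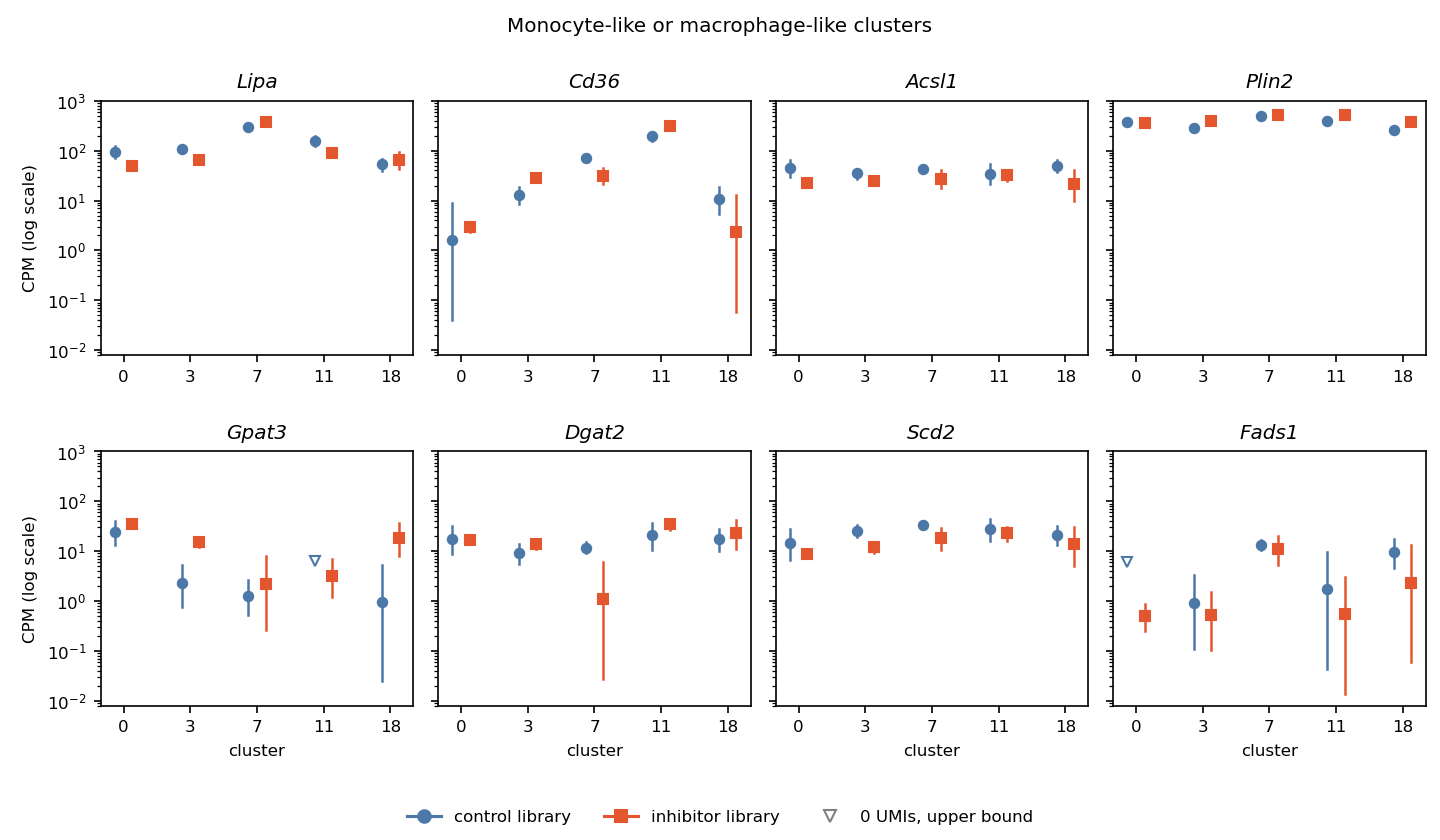
CPM on a shared log scale of 8 genes in the 5 monocyte-like or macrophage-like clusters, as points with 95% counting intervals for the control (circles) and inhibitor library (squares); open triangles mark the upper bound for 0 UMIs. Lipa is higher in inhibitor cells of cluster 7 (304 and 376 CPM), by less than 1.5-fold. Cd36 is lower in inhibitor cells of cluster 7 and higher in those of clusters 0, 3 and 11, with overlapping intervals in cluster 0.

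Hepatocyte-like cells (146 control and 140 inhibitor cells, median depths 1868 and 3859 UMIs) had higher CPM of 3 lipase and 3 droplet genes in the inhibitor library and lower CPM of 6 synthesis and desaturase genes. Most genes of the class were higher there, and relative to the median gene Mgll was the single lipase or droplet gene that stayed past 1.5-fold. No cluster of the class held enough cells of both libraries to be compared within itself. The control cells lay in cluster 22, led by Akr1c18, Cyp2a4 and Afp (75 control and 3 inhibitor cells), and cluster 23, led by Gsta1 (69 and 0 cells), and the inhibitor cells in cluster 19, led by Slc1a2, Rgn and Oat (2 and 137 cells). A cluster of 1 library may be that library rather than a kind of cell, and library and cluster cannot be told apart here. The hepatocyte secreted genes made up 8.83% of the UMIs of the class in the control and 2.80% in the inhibitor library. Of 23 measured members, 15 were called, 9 higher and 6 lower, where 53.0% of all measured genes were called, 41.0% higher and 12.0% lower. The median log2 ratio of all measured genes was 0.38 and that of the members 0.41. Relative to that shift, 4 members (Acsl1, Mgll, Me1 and Thrsp) were higher and 9 lower, where 3424 of 6931 measured genes were called. The 9 were the 6 synthesis and desaturase genes called lower, with Cd36, Elovl5 and Fads1 added. The share of all calls that were higher went from 77.3% to 52.7%.

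All 3 measured lipase genes were higher. Mgll stood at 55.0 and 268 CPM, 4.88-fold higher in the inhibitor library (interval 3.51 to 6.94). Pnpla2 (83.9 and 142 CPM) and Lipa (45.4 and 80.9 CPM) were higher by less, and both were within 1.5-fold of the shift of all genes. In the control clusters 22 and 23 Mgll stood at 63.2 and 40.5 CPM, both below the 271 CPM of cluster 19. Among the droplet genes, Plin2 stood at 617 and 1081 CPM (log2 ratio 0.81, interval 0.66 to 0.96), Cideb, which joins droplets and helps to load lipoproteins, at 59.1 and 97.7 CPM, and Cidec, which fuses droplets, at 42.6 and 82.4 CPM. Relative to the median gene these log2 ratios were 0.43 for Plin2, 0.34 for Cideb and 0.57 for Cidec, and none of the 3 was past 1.5-fold. Plin2 of cluster 22 (878 CPM) lay near that of cluster 19 (1092 CPM), and that of cluster 23 was lower (321 CPM). Without cluster 23 the log2 ratio of Plin2 was 0.29 and the call ended. Dgat2 stood at 94.9 and 140.0 CPM, short of 1.5-fold. Of the uptake genes, Acsl1 was higher (72.9 and 169 CPM, log2 ratio 1.21, interval 0.78 to 1.67) and Cd36 was within 1.5-fold (44.0 and 32.8 CPM). Vldlr, the very low density lipoprotein receptor, had 0 control UMIs, which allows up to 5.07 CPM, and 17 inhibitor UMIs (12.4 CPM), too few to be measured.

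The synthesis genes divided. Thrsp, a regulator of lipogenesis, stood at 160 and 496 CPM (3.11-fold, interval 2.55 to 3.82) and Me1, which supplies NADPH for synthesis, at 71.5 and 157 CPM, and both were higher in the inhibitor library. A Thrsp UMI was seen in 30.1% of control and 55.7% of inhibitor hepatocyte-like cells, against 0.502% and 0% of neutrophil-like cells at median depths of 1954 and 1639 UMIs. Fasn, fatty acid synthase, stood at 90.8 and 95.5 CPM. Acly, which makes cytosolic acetyl-CoA, was lower (77.0 and 29.2 CPM), as were Acaca, which makes malonyl-CoA (28.9 and 18.96 CPM), Srebf1, the gene of SREBP-1 (24.8 and 12.4 CPM), Scd2 (35.8 and 2.92 CPM, 26 and 4 UMIs), Fads2 (53.6 and 12.4 CPM) and Scd1 (872 and 516 CPM). The intervals of Acaca and Srebf1 include equality. Single cells weighed on Scd1, with 304 of 634 control UMIs and 208 of 708 inhibitor UMIs in 1 cell each, while 47.3% and 48.6% of cells had a UMI.

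The control clusters differed in most synthesis genes. Fasn stood at 161 CPM in cluster 22, 8.67 in cluster 23 and 96.7 in cluster 19, and Acly at 134, 14.5 and 28.8 CPM. Fads1 stood at 150.2, 11.6 and 60.5 CPM, Fads2 at 100.1, 2.89 and 11.8 CPM and Scd1 at 1460, 231 and 518 CPM. For these 5 genes, of which Fasn and Fads1 were not called, and for Srebf1 (39.5, 8.67 and 12.5 CPM) the inhibitor cluster lay between the control clusters. For Acaca (28.99, 28.9 and 19.2 CPM) and Scd2 (58.0, 11.6 and 2.95 CPM) it lay below both, and for Thrsp (216, 92.5 and 502 CPM), Me1 (63.2, 80.9 and 159 CPM), Acsl1 (103, 37.6 and 171 CPM), Mgll and Cidec it lay above both. Not all of this order was clear of counting error. The interval of cluster 19 overlapped that of cluster 23 for Acly, Fads2, Srebf1 and Scd2, that of cluster 22 for Cidec, and both for Acaca. Without the mitochondrial limit the class held 728 control and 164 inhibitor cells, and the log2 ratio was 5.15 for Mgll, 4.26 for Thrsp and 0.48 for Scd1, which reversed. Of the other 58 pathway genes, 46 were measured in this class, 25 higher and 8 lower, with a median log2 ratio of 0.64. The hepatic lipase gene Lipc (5.50 and 106 CPM), the elongase gene Elovl7 (8.25 and 84.6 CPM) and Nceh1 (2.75 and 43.7 CPM) were higher. Insig1, which holds back SREBP processing (77.0 and 20.4 CPM), Elovl2 (72.9 and 21.9 CPM) and Aadac (204 and 98.4 CPM) were lower.

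**Figure D4:**
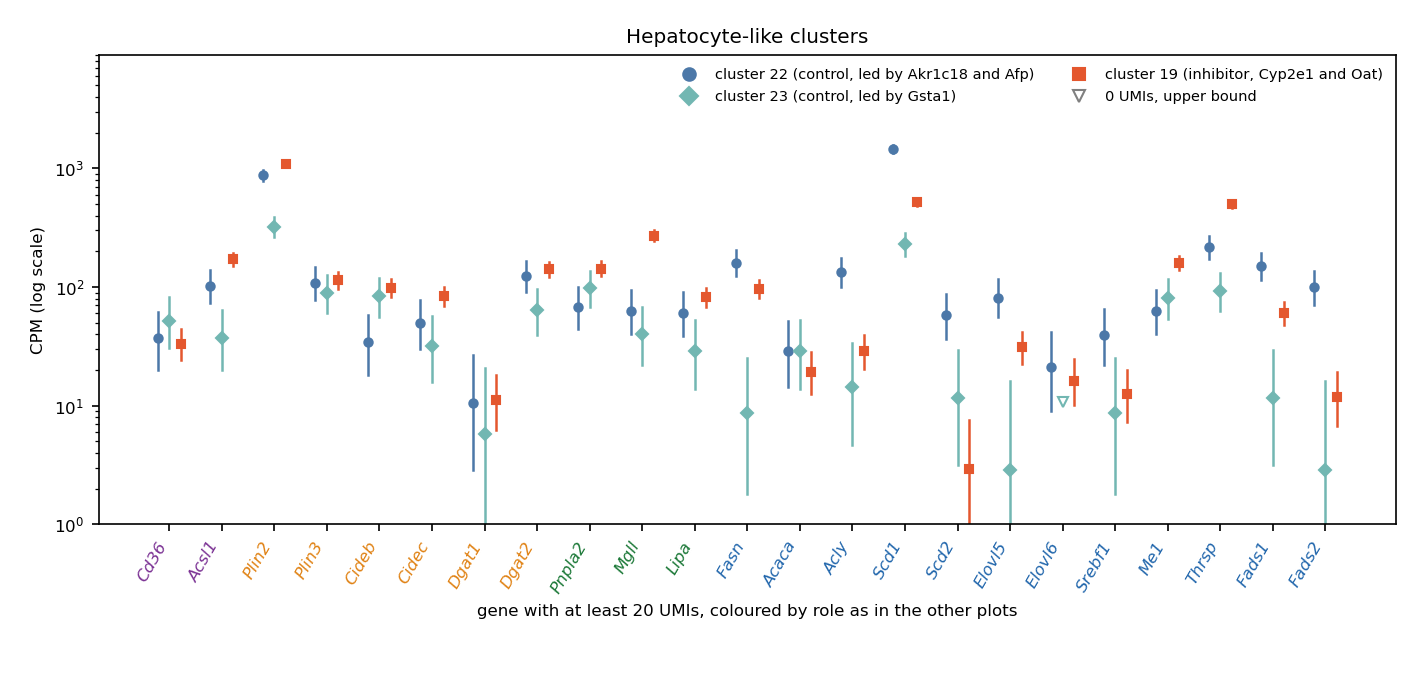
CPM on a log scale of the 23 measured genes in the 3 hepatocyte-like clusters, clusters 22 and 23 from control cells and cluster 19 from inhibitor cells, with 95% counting intervals; the open triangle marks the upper bound for 0 UMIs. Mgll and Thrsp of cluster 19 lie above both control clusters, and Scd1, Acly and Fasn of cluster 19 lie between them, with an Acly interval that overlaps that of cluster 23.

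**Figure D5:**
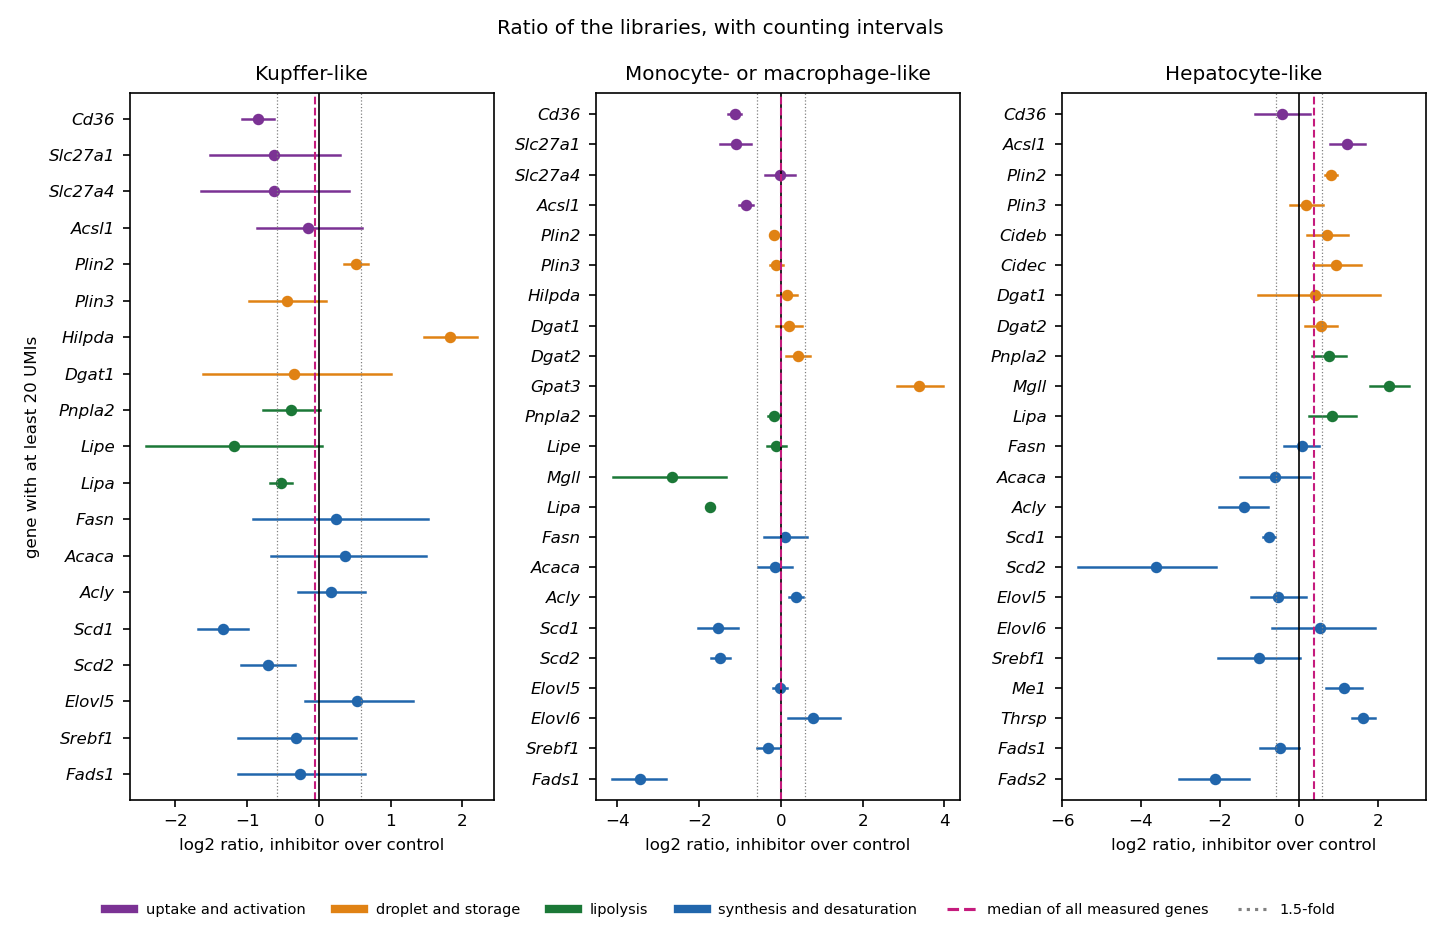
Log2 ratio of inhibitor over control CPM, with 95% counting intervals, for the measured genes of Kupffer-like, monocyte-like or macrophage-like and hepatocyte-like cells, coloured by role. The dashed line is the median of all measured genes, which is at 0.38 in hepatocyte-like cells, and dotted lines mark 1.5-fold; Hilpda, Gpat3 and Mgll are the highest points of the 3 panels in turn.

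Neutrophil-like cells (797 control and 548 inhibitor cells, median depths 1954 and 1639 UMIs) held a set of storage and lipase genes at high levels in both libraries. Dgat1, the other enzyme that completes triglyceride, stood at 182 and 143 CPM, with a UMI in 24.6% and 17.7% of cells, while B cell-like cells had one in 2.17% and 1.73% and were deeper (medians 3139 and 2674 UMIs). Acsl1 stood at 213 and 190.2 CPM, Pnpla2 at 201 and 193 CPM, Lipe at 47.7 and 35.9 CPM, and Gpat3 at 44.0 and 41.2 CPM. These 5 were within 1.5-fold between the libraries. Hilpda (39.0 and 13.7 CPM), Dgat2 (35.9 and 22.2 CPM), Mgll (14.9 and 6.34 CPM), Lipa (116 and 64.5 CPM), Scd1 (16.1 and 6.34 CPM) and Elovl5 (12.4 and 6.34 CPM) were lower. That is 6 of 15 measured members, none higher, where 28.8% of all measured genes were called, 5.84% higher and 22.9% lower. The intervals of Dgat2, Mgll and Elovl5 include equality. The median log2 ratio was -0.42 for the members and -0.16 for all genes. Relative to that shift 1 member was higher and 5 lower, where 1690 of 6062 measured genes were called. The share of all calls that were higher went from 20.3% to 39.1%. Free RNA was estimated at 21.0% and 28.5% of UMIs in this class, and after its subtraction the log2 ratio of Hilpda was -2.89 in place of -1.51. The pathway list had 22 measured genes, 2 higher and 5 lower. Fabp1 (29.7 and 56.0 CPM) and Acsl4 (11.2 and 20.1 CPM) were higher, and Nceh1, Acsl5 and Lrp1 were the lowest of the others (log2 ratios -1.58, -1.36 and -0.97). The intervals of Acsl4 and Lrp1 include equality.

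B cell-like cells (600 and 347 cells) carried Scd1 at 217 and 200.1 CPM. A Scd1 UMI was seen in 49.3% and 43.2% of them, and after thinning in 19.02% and 18.9%, against 3.14% and 0.912% of neutrophil-like cells unthinned. Of 17 measured members 7 were called, 2 higher and 5 lower, where 15.7% of all measured genes were called, 6.3% higher and 9.41% lower. The median log2 ratio was -0.34 for members and -0.00 for all genes. Counts were small. Cd36 was higher (7.79 and 23.4 CPM), with 21 of the 25 inhibitor UMIs in 1 cell, and it reversed under 5 alternatives, for example to -0.86 with no doublets removed. Acaca was higher on 11 UMIs in each library. Slc27a4, Acsl1, Lipa, Fasn and Scd2 were lower, with log2 ratios from -1.02 to -0.65 and intervals that include equality in each case. The pathway list had 27 measured genes, 2 higher and 1 lower: Cebpb (56.8 and 112 CPM), Lpin2 (13.7 and 21.5 CPM) and Agpat1 (9.17 and 4.68 CPM). The intervals of Lpin2 and Agpat1 include equality.

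In T cell-like cells (2549 and 2651 cells), 6 of 21 measured members were lower and none higher, where 15.3% of all measured genes were called, 3.36% higher and 11.9% lower. The median log2 ratio was -0.27 for members and -0.06 for all genes. Scd2 stood at 18.7 and 8.66 CPM (log2 ratio -1.11, interval -1.48 to -0.75) and was lower in 3 of the 5 clusters that measured it and higher in none. Scd1 (11.6 and 4.02 CPM), Lipe (4.74 and 2.59 CPM), Fads1 (4.17 and 2.77 CPM), Dgat2 (2.56 and 1.43 CPM) and Cd36 (2.28 and 0.446 CPM) were also lower. The intervals of Fads1 and Dgat2 include equality. Cd36, Dgat2 and Fads1 were measured in none of the 5 clusters compared, and Cd36 reached a log2 ratio of 0.78 under an alternative. Free RNA was estimated at 12.8% and 11.5% of UMIs in this class, and the hepatocyte secreted genes made up 0.179% and 0.00969%; the part of either in these differences was not tested beyond the subtraction above. Cluster 17, led by Apoa4, held 156 control and 2 inhibitor cells and 50 of the 122 control Scd1 UMIs. Without it 3 members were called, where 1609 of 11147 measured genes were called, and the log2 ratio was -0.87 for Scd1, -0.19 for Dgat2 and -0.37 for Fads1. Hilpda (38.7 and 39.8 CPM), Acly (33.02 and 37.8 CPM) and Pnpla2 (32.4 and 32.1 CPM) were close between the libraries. The pathway list had 45 measured genes, 4 higher and 8 lower. Elovl7 (1.42 and 5.89 CPM) and Fabp1 (15.3 and 27.2 CPM) were higher, and the hepatocyte esterase genes Ces3a, Aadac and Ces1d were lower (log2 ratios -3.71, -3.41 and -3.26).

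In NK-like or ILC1-like cells (215 and 260 cells), Scd2 was the single called member of 11 measured (26.7 and 9.33 CPM, log2 ratio -1.52, interval -2.75 to -0.40), where 18.2% of all measured genes were called, 7.12% higher and 11% lower. The median log2 ratio was -0.15 for members and -0.03 for all genes. Hilpda stood at 54.5 and 68.1 CPM and Dgat1 at 43.4 and 36.4 CPM. Of 28 measured pathway genes, Elovl1, Insig2 and Fabp1 were higher (log2 ratios 0.64, 0.79 and 0.68) and Slc25a1, the mitochondrial citrate carrier gene, was lower (-0.63). The intervals of Insig2, Fabp1 and Slc25a1 include equality. In conventional dendritic cell-like cells (413 and 315 cells), 5 of 21 members were called, 2 higher and 3 lower, where 20.9% of all measured genes were called, 7.08% higher and 13.8% lower. The median log2 ratio was -0.01 for members and 0.01 for all genes. Dgat1 (4.55 and 9.01 CPM) and Elovl6 (3.90 and 6.30 CPM) were higher, and Scd1 (9.33 and 3.002 CPM), Fads1 (17.4 and 9.61 CPM) and Slc27a4 (3.69 and 2.40 CPM) were lower. The intervals of Elovl6 and Slc27a4 include equality, and the Slc27a4 call held under 6 of 12 alternatives. Cluster 24, in which 6 of 6 cycling markers counted, held 57 control and 9 inhibitor cells and 27 of the 80 control Fads1 UMIs, and in cluster 8 (356 and 306 cells) Fads1 was within 1.5-fold (14.3 and 10.1 CPM). Of 39 measured pathway genes 5 were higher and 3 lower. Cebpb (80.5 and 199 CPM) and Scarb1 (41.0 and 62.7 CPM) were higher, and Fabp4, Lpl and Nceh1 were lower (log2 ratios -2.89, -2.09 and -1.26).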

How the data were processed

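Deposited whole-number UMI counts per gene and barcode were used without normalization; per the file headers, the authors wrote them with Cell Ranger 5.0.1. The submitters' processing notes name Cell Ranger, R 3.0, Seurat 3 and the build mm9. The build behind the counts is open, and printed coordinates and promoters are from GRCm38.p6 (RefSeq). The members and lists were chosen with earlier results of these data known.

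Barcodes with at least 300 genes, at least 500 UMIs and at most 25% mitochondrial UMIs were kept. Doublets were scored against simulated doublets and the top 0.8% per 1000 barcodes was removed (374 control barcodes, 5.47%, and 717 inhibitor barcodes, 7.57%). Counts were scaled to 10000 per cell and log-transformed, and 2000 variable genes, 30 principal components and 20 neighbours gave the Leiden clusters (resolution 1, no integration). Classes took their names from at least 3 markers at least 2-fold above other clusters and detected in at least 10% of cells. The detection condition, the handling of ties, the merging of 2 dendritic classes and the use of 17 of 20 hepatocyte secreted genes (without Hp, Trf and Apoc1) were chosen after seeing the data, as were 2 alternatives, the motifs and the promoters shown.

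UMIs were summed per class and library. Intervals are exact Poisson for a level, conditional binomial for a ratio and Clopper-Pearson for a share of cells. Members were named in a class when measured and past 1.5-fold, or when the class held their highest level; some were also named beside these for their role, after their values were seen. Of the 58 other pathway genes, the 3 highest and 3 lowest past 1.5-fold per class were named, by the ratio bound nearest to 1. One of these genes is counted but its values are not reported here. Free RNA was estimated from the 17 genes, and 13 other settings were run besides these. The ratio computation was tested on simulated data. Python 3.11.15 was used with numpy 2.4.6, scipy 1.17.1, pandas 2.3.3, scikit-learn 1.9.0, leidenalg 0.10.2 and matplotlib 3.10.9.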

Additional observations from a re-analysis of the deposited data

Results flagged for a closer look

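Some members were called in opposite directions in different classes, and none of these differences between classes was tested. Cd36 had a log2 ratio of inhibitor over control of 1.59 in B cell-like cells, -0.85 in Kupffer-like cells, -2.35 in T cell-like cells and -1.12 in monocyte-like or macrophage-like cells, and the B cell-like value rests on 1 cell. Hilpda was at 1.83 in Kupffer-like and -1.51 in neutrophil-like cells. Mgll was at 2.29 in hepatocyte-like and -2.67 in monocyte-like or macrophage-like cells, the latter on 15 and 8 UMIs. Acsl1 was at 1.21 in hepatocyte-like and -0.85 in monocyte-like or macrophage-like cells.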

How the results depend on the processing

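Of 712 log2 ratios of single genes under the alternatives, 640 stayed within the counting interval of the reported value, 55 moved and 17 reversed. Of 105 counts of called members 89 stayed within 1.5 times the reported count. Cd36 reversed in B cell-like cells with no doublets removed (-0.86), a doubled doublet share (-0.999), no mitochondrial limit (-1.24), at least 600 genes (-1.06) and separate clustering of the libraries (-1.02), and in T cell-like cells with at least 600 genes (0.77) and separate clustering (0.78). With no doublets removed, Acsl1 in B cell-like cells was 0.13, and in hepatocyte-like cells Lipa was -0.024 and Acaca 1.21. Acaca in hepatocyte-like cells was also 0.37 with the doubled doublet share, 1.02 without the mitochondrial limit and 0.46 with at least 600 genes. In the same class Acly was 0.54 and Scd1 0.48 without the mitochondrial limit, and Scd1 was 1.66 with at least 600 genes. Fads1 in T cell-like cells was 0.0099 after free RNA subtraction. Except where given here, the cause of a move was not tested.

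The count of called members fell by construction with at least 50 UMIs per gene, to 0 in NK-like or ILC1-like, 4 in Kupffer-like and 3 in each of B cell-like, neutrophil-like and conventional dendritic cell-like cells. A 2-fold call left 3 in each of T cell-like, B cell-like, Kupffer-like and neutrophil-like cells, 7 in hepatocyte-like and 1 in conventional dendritic cell-like cells. In T cell-like cells it was 2 with no doublets removed and 3 without the Apoa4-led cluster; in NK-like or ILC1-like cells it was 2 without the mitochondrial limit; and in conventional dendritic cell-like cells it was 3 at resolution 2 and 3 with separate clustering. Without the Gsta1-led cluster 16 members were called in hepatocyte-like cells, 7 higher and 9 lower. In that setting 3625 of 6528 measured genes were called, and 79.1% of these calls were higher. The median log2 ratio was 0.45 for all measured genes and -0.05 for the members. Clustering without the members and the pathway list left 10 called in monocyte-like or macrophage-like and 8 in Kupffer-like cells. Free RNA was not subtracted from hepatocyte-like cells, which make these transcripts. No paired analysis was possible because each group has 1 library. Depth limits the smaller classes: 20 UMIs was the least at which a gene was measured, and ratios on few UMIs have wide intervals.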

Other observations

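Classes with fewer than 100 cells in a library were left out of the comparisons. The control library held 26 endothelial-like cells, with Cd36 at 505 CPM, Mgll at 496 CPM, Thrsp at 193 CPM and Plin2 at 208 CPM, and the inhibitor library held 2 such cells. Control cholangiocyte-like cells numbered 45 and had Plin2 at 491 CPM and Vldlr at 23.4 CPM. The single inhibitor cholangiocyte-like cell held 137 Scd1 UMIs and 22 UMIs of Cidea, a droplet fusion gene. Plasmacytoid dendritic cell-like cells (165 and 76 cells) had Slc27a1 at 50.7 and 73.8 CPM, Acsl1 at 68.3 and 59.0 CPM and Fads2 at 23.3 and 24.0 CPM.

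The barcodes over the mitochondrial limit, 2204 in the control and 885 in the inhibitor library, were not among the compared cells. As CPM of their UMIs outside mitochondrial genes they had Scd1 at 904 and 671, Plin2 at 214 and 543, Mgll at 6.14 and 47.3 and Thrsp at 10.0 and 12.5. The hepatocyte secreted genes made up 17.1% and 1.42% of those UMIs.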
